A study of Gloeophyllum trabeum with 9 samples.

Results

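This account is about 101 gene models of the brown rot fungus Gloeophyllum trabeum whose transcript levels were far higher on cedar wood and on cellulose than on glucose. They were chosen by their own measured values, from 11846 gene models in all. Mean levels on Japanese cedar and on cellulose each had to be at least 10 times the glucose mean and at least 5 TPM, with every cedar and cellulose library above every glucose library. Of the 125 gene models that met these numbers, 24 were set aside because they stand on the rule's list of genes that the study already describes, among them GH5_5, GH10 and GH12 hydrolases, MFS transporters and cytochrome P450 enzymes. The 101 that remain are called members here, and for most of them no description stands in the lists used here, which cover part of the gene models. Since the comparison with glucose selected them, their distance from glucose is described below without any test, and the members are tested only for cedar against cellulose.

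Mycelium of strain NBRC6430 was grown in shaken liquid culture with 1 carbon source for each group of 3 biological replicates. The groups were Japanese cedar (Cryptomeria japonica, a softwood) for 5 days, microcrystalline cellulose for 5 days, and glucose for 3 days, and the labels name no other treatment. Carbon source and culture time therefore cannot be told apart in any comparison with glucose, whereas cedar and cellulose cultures were of the same age. All 9 libraries come from 1 strain and 1 time point for each carbon source. According to the paper, the cellulose and the cedar wood flour had been nanofibrillated, so the cedar was not intact wood.

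Brown rot fungi remove cellulose and hemicellulose from conifer wood and leave behind an oxidized lignin. Their decay is thought to begin with hydroxyl radicals made outside the hyphae by iron and low-molecular-weight catechols (the chelator-mediated Fenton reaction), after which hydrolases release sugars from the loosened wall. In many fungi, genes for these secreted enzymes, for sugar uptake and for the metabolism that follows are repressed by glucose and switched on by breakdown products of the polymer. A list of genes that are near silent on glucose and abundant on both a pure polymer and wood holds known hydrolases, transporters and oxidases.

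The values are TPM, transcript abundances corrected for transcript length, which the authors rescaled between libraries. After this rescaling, libraries summed to 709862 to 899473 TPM on cedar, 1574621 to 1680448 TPM on cellulose and 678148 to 771024 TPM on glucose, so a level depends on the scale chosen. The 2 gene models with the highest mean over all libraries, Glotr_134131 and Glotr_50888, are not members. They averaged 475851 and 289162 TPM on cellulose, 191205 and 119431 TPM on cedar, and 116492 and 72348 TPM on glucose. If every library is brought to the same total, 50 gene models meet the rule, and all 50 of them are among the 101. In bulk RNA, a higher level cannot be told apart from a larger share of hyphae that express the gene. Read counts for single genes were not used here, so the precision of each value comes from the spread between libraries. Cellulose replicate 3 and cedar replicate 2 stood apart from the other libraries of their groups over many gene models. Applied without cellulose replicate 3 the rule found 97 gene models, 95 of them members, and without cedar replicate 2 it found 104, 99 of them members.

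On both substrates the members made up several percent of the transcriptome, and on glucose well under 1%. Together they held 48434, 61484 and 51418 TPM on cedar, 123330, 90384 and 149872 TPM on cellulose, and 1225, 1324 and 1425 TPM on glucose. As a share of all TPM this was 5.40%, 8.66% and 5.72% on cedar, 7.83%, 5.41% and 8.92% on cellulose, and 0.162%, 0.172% and 0.210% on glucose. Just 2 members, Glotr_130898 and Glotr_92695, carried 43.7% to 55.3% of the members' TPM on cedar, 70.0% to 72.8% on cellulose and 15.2% to 23.2% on glucose.

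**Figure D1:**
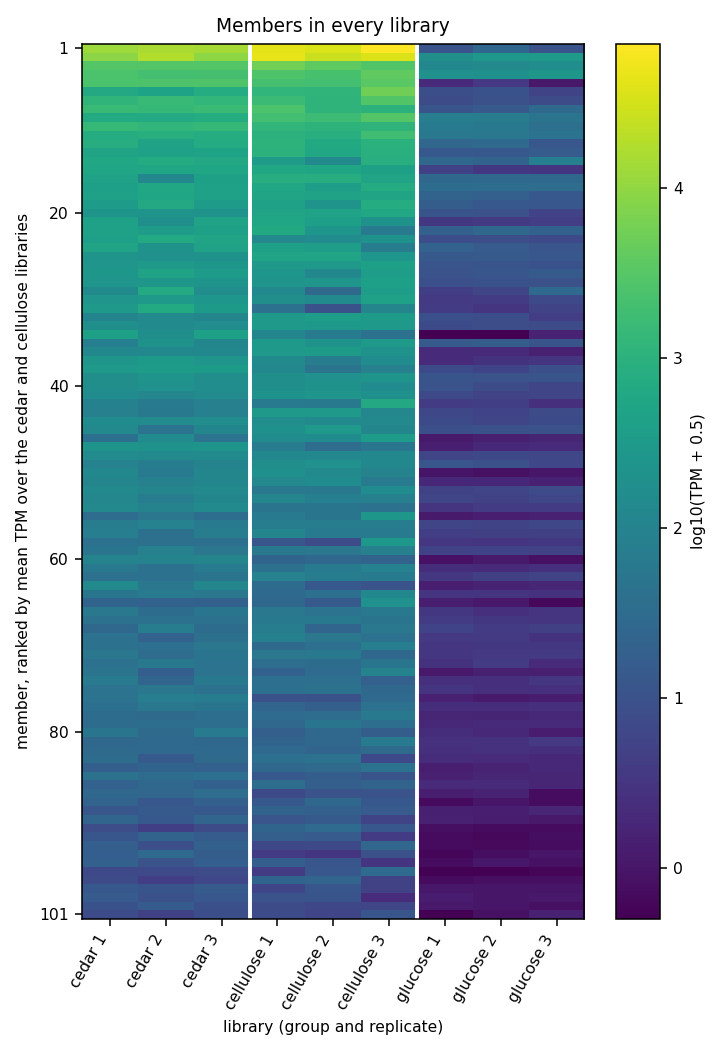
Levels of the 101 members as log10(TPM + 0.5), 1 row for each member in order of its mean over the 6 cedar and cellulose libraries and 1 column for each library. Every row is brighter in all 6 substrate libraries than in the 3 glucose libraries, as the rule demands, and rows 1 and 2 stand far above the others on both substrates.

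The median over members of the mean level was 102 TPM on cedar, 91.8 TPM on cellulose and 3.14 TPM on glucose. On glucose, 22 members averaged under 1 TPM and 60 averaged under 5 TPM, while 42 members averaged at least 100 TPM on both substrates and 8 at least 1000 TPM. The median ratio to glucose was 25.4 on cedar and 23.4 on cellulose. Of all 11846 gene models, 1.49% met the same numbers on cedar and 1.65% on cellulose, and all 101 members met both because the rule required it. Cedar and cellulose share their glucose libraries, so the ratios are given side by side and not set against each other.

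Among the most abundant members, Glotr_130898 led on both substrates. It encodes a hypothetical protein and measured 12309, 15727 and 14304 TPM on cedar, 42708, 36285 and 70876 TPM on cellulose and 9.71, 25.8 and 9.99 TPM on glucose. Cellulose replicate 3 was the highest of all libraries, and no cellulose value overlapped a cedar value. Its mean was 931 times the glucose mean on cedar and 3296 times on cellulose. By mean level it was number 5 of all gene models on cedar, number 4 on cellulose and number 4428 on glucose. Glotr_92695, which carries no description in the lists used here, measured 8851, 18259 and 9389 TPM on cedar, 45703, 26965 and 38223 TPM on cellulose and 177, 281 and 289.6 TPM on glucose. Cedar replicate 2 stood well above the other cedar libraries and still lay below every cellulose library. Its glucose mean of 249.1 TPM was the highest of any member, and its ratios were 48.8 on cedar and 148 on cellulose.

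The next members by level were similar on the substrates. Glotr_137672, without a description, measured 2987, 2967 and 2988 TPM on cedar, 5760.3, 3654 and 2782 TPM on cellulose and 126, 129.6 and 169 TPM on glucose. The cedar libraries were almost equal, and the cellulose libraries spread on both sides of them. Glotr_69736, also without a description, measured 2520.0, 2086 and 2154 TPM on cedar, 2643, 2218 and 3883 TPM on cellulose and 205, 189.7 and 263 TPM on glucose. Again the substrates overlapped, and the gene passed the rule narrowly with a ratio of 10.3 on cedar. Glotr_126265, a hypothetical protein, measured 2465, 2569 and 2670.1 TPM on cedar, 2180.0, 2019 and 3334 TPM on cellulose and 1.56, 3.03 and 0.648 TPM on glucose. It was the member with the largest smaller ratio, 1470.0 on cedar and 1437 on cellulose, with overlapping libraries on the substrates and the lowest glucose value in replicate 3.

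Glotr_110321, a hypothetical protein, measured 648, 481 and 775 TPM on cedar, 1226, 1199 and 5309 TPM on cellulose and 8.09, 9.59 and 5.19 TPM on glucose. The cellulose mean leaned on replicate 3, which stood far above replicates 1 and 2, and all cellulose libraries lay above all cedar libraries. Glotr_137245, a hypothetical protein, measured 1188, 1478 and 1317 TPM on cedar, 1639, 1108 and 2789.9 TPM on cellulose and 6.99, 8.89 and 7.07 TPM on glucose. Here too cellulose replicate 3 was the highest, and cellulose replicate 2 lay below all cedar libraries. Glotr_117324, without a description, measured 1462, 1377 and 1623 TPM on cedar, 2455, 1145 and 1029 TPM on cellulose and 10.6, 13.4 and 27.9 TPM on glucose. In this gene cellulose replicate 1 stood above the rest, and glucose replicate 3 was the highest of the glucose libraries. Glotr_122815 and Glotr_116747 complete the 10 most abundant members. Glotr_116747 measured 1381, 1243 and 1329.7 TPM on cedar, 1209.6, 1049 and 1128 TPM on cellulose and 62.7, 59.8 and 39.1 TPM on glucose, with the 6 substrate libraries in a narrow band, and its span overlaps that of another gene model, Glotr_78016, in the annotation. Glotr_122815 is described with the members that differed between cedar and cellulose.

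**Figure D2:**
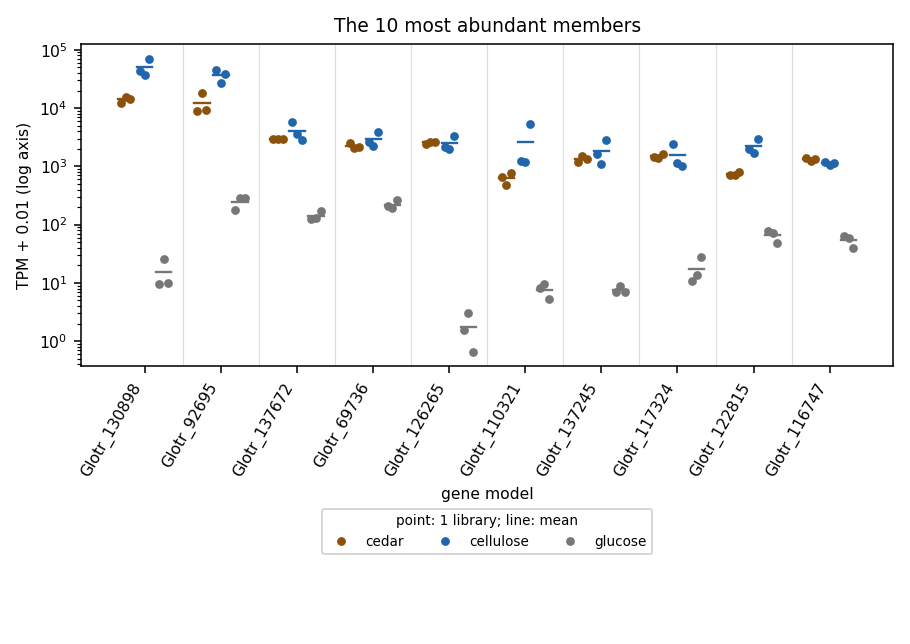
TPM of the 10 members with the highest mean over the cedar and cellulose libraries, on a log axis with 0.01 added, with 1 point for each library and a line at the mean of each group. Glotr_130898 and Glotr_92695 lie above all others on both substrates, and Glotr_126265 has the widest gap to glucose beside Glotr_130898.

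Ranked by the smaller of their ratios to glucose, 8 members reached at least 100 on both substrates, 19 reached 50 and 47 reached 20. Glotr_131089, next in this order after Glotr_126265 and Glotr_130898 and named as a short-chain alcohol dehydrogenase, measured 125, 64.9 and 117 TPM on cedar, 191, 148 and 99.2 TPM on cellulose and 0.486, 0.361 and 0.507 TPM on glucose. Cedar replicate 2 and cellulose replicate 3 were the low library of their groups, and the ratios were 227 on cedar and 324 on cellulose. Glotr_58342, without a description, measured 441, 186 and 464 TPM on cedar, 539, 397 and 222 TPM on cellulose and 2.97, 3.31 and 3.89 TPM on glucose, with the same 2 libraries low and ratios of 107 on cedar and 114 on cellulose. Glotr_130130, a hypothetical protein, is listed at 0 in glucose replicates 1 and 2, so that its ratios of 898 on cedar and 194 on cellulose rest on 1.15 TPM in glucose replicate 3 alone. Glotr_80788 was listed at 0 in glucose replicate 2, and Glotr_45932 in glucose replicate 1.

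Short-chain dehydrogenases form a large superfamily of NAD(P)-dependent enzymes that interconvert alcohols and carbonyls, and 3 members are named as such. Glotr_40998, annotated also as a reductase of broad specificity, measured 549, 544 and 548 TPM on cedar, 625, 561 and 430.0 TPM on cellulose and 4.51, 2.87 and 2.43 TPM on glucose. The cedar libraries were almost equal, and the cellulose libraries lay on both sides of them. The means were 547 ± 2.65 TPM on cedar, 538 ± 99.2 TPM on cellulose and 3.27 ± 1.097 TPM on glucose (SD, n = 3 each), with a limma adjusted p of 0.883 between cedar and cellulose. Glotr_131089 overlapped between the substrates as well, with a limma adjusted p of 0.247.

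Glotr_137467, the last of the 3, was high on cedar, at 291, 703 and 317 TPM, against 42.4, 9.09 and 112 TPM on cellulose and 3.65, 2.54 and 5.31 TPM on glucose. Every cedar library was above every cellulose library, and both groups were widely spread, with cedar replicate 2 and cellulose replicate 3 the high ones. The mean ratio of cedar to cellulose was 7.99, the largest of any member, but the difference did not pass the threshold (log2 fold change 3.48, standard error 0.86, limma adjusted p = 0.0177). Glotr_73346 is named after 15-hydroxyprostaglandin dehydrogenase, which in mammals is a short-chain dehydrogenase that oxidizes a hydroxyl group of prostaglandins. It measured 102, 97.95 and 108 TPM on cedar, 22.6, 25.7 and 20.9 TPM on cellulose and 0.382, 0.6696 and 0.354 TPM on glucose. The libraries of each substrate were close together, and the groups were far apart (log2 fold change 2.13, standard error 0.13, limma adjusted p = 5.09e-04), a mean ratio of 4.45. Of these 4 genes, all of them near silent on glucose, Glotr_73346 was the 1 that passed the test between cedar and cellulose.

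Few of the members were named as polysaccharide hydrolases or transporters, classes whose known genes the selection had set aside. Glotr_39602 belongs to glycoside hydrolase family GH71, whose characterized fungal members cleave alpha-1,3-glucan, a polymer of fungal walls. It measured 119, 75.7 and 114 TPM on cedar, 110.2, 83.96 and 88.9 TPM on cellulose and 5.41, 4.43 and 5.76 TPM on glucose, with overlapping substrates and cedar replicate 2 the low cedar library. Glotr_80788, assigned to family GH109 (N-acetylgalactosaminidases), measured 6.48, 6.22 and 7.301 TPM on cedar, 3.71, 12.04 and 31.3 TPM on cellulose and 0.0375, 0 and 0.0862 TPM on glucose. The cedar libraries were close together, whereas on cellulose replicate 3 was the highest and replicate 1 lay below all cedar libraries. Glotr_29189, an alpha/beta-hydrolase annotated as a predicted lipase, measured 46.5, 17.1 and 45.99 TPM on cedar, 19.2, 30.7 and 102 TPM on cellulose and 0.5999, 0.936 and 0.936 TPM on glucose. Cedar replicate 2 was the low library of its group and cellulose replicate 3 the high one. Glotr_34700, a permease of the major facilitator superfamily, a class of transporters that carries sugars and many other small solutes, measured 75.8, 96.2 and 65.8 TPM on cedar, 73.04, 73.3 and 73.4 TPM on cellulose and 5.602, 5.28 and 5.68 TPM on glucose. Its cellulose libraries were nearly identical and lay inside the range of the cedar libraries.

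The remaining members with a description carry diverse annotations. Glotr_16454 encodes a protein with ankyrin repeats, which bind other proteins, and measured 782, 846 and 787 TPM on cedar, 1016, 854 and 1859 TPM on cellulose and 58.4, 56.3 and 44.5 TPM on glucose. Cellulose replicate 3 stood above all other libraries. Glotr_21049, with a gene span of just 153 bases, is annotated as a hypothetical protein with a zinc finger, a motif found in many DNA-binding regulators. It measured 357, 648 and 355 TPM on cedar, 443, 231 and 759 TPM on cellulose and 16.2, 12.4 and 12.03 TPM on glucose. Both cedar replicate 2 and cellulose replicate 3 were high in it, and cellulose replicate 2 was the lowest substrate library. Glotr_40546, annotated as a monooxygenase of coenzyme Q biosynthesis, measured 50.6, 87.8 and 54.9 TPM on cedar, 57.5, 55.6 and 85.9 TPM on cellulose and 4.52, 4.85 and 4.39 TPM on glucose, with overlapping substrates. Glotr_43584, a thiamin diphosphate-binding protein, measured 23.7, 12.8 and 23.6 TPM on cedar, 10.9, 13.9 and 5.21 TPM on cellulose and 0.995, 0.759 and 0.606 TPM on glucose, with cedar replicate 2 and cellulose replicate 3 low. The hypothetical proteins Glotr_96525 and Glotr_141070 were on the study's own lists of strongly raised genes, which were picked from these same libraries, as were 12 other members. Glotr_96525 measured 36.98, 155 and 45.1 TPM on cedar, 159, 162 and 334 TPM on cellulose and 0.657, 0.891 and 1.23 TPM on glucose, and Glotr_141070 measured 265, 327 and 246 TPM on cedar, 138, 76.7 and 163 TPM on cellulose and 1.62, 2.35 and 2.67 TPM on glucose. The first had its low values in cedar replicates 1 and 3, and the second was higher in every cedar library than in any cellulose library.

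Descriptions were held for part of the gene models, so the other genes of these families could be counted only in part. These other genes still include gene models set aside, such as GH10 and GH12 hydrolases and MFS transporters, which met the same numbers against glucose. Some descriptions also came from the study's lists of its most raised genes. Higher calls below can therefore follow in part from selection, and the difference from all gene models was not tested. Across all family lists, and leaving the members out, 79 of 393 genes tested were higher on cedar than on glucose and 62 were lower by limma, against 15.2% higher and 15.7% lower of all gene models tested. On cellulose 56 of 391 were higher and 62 lower, against 10.4% higher and 13.9% lower. Genes of the families thus gave 20.1% and 14.3% higher calls on cedar and cellulose, and 15.8% and 15.9% lower calls. The carbohydrate-active list was made by a word search that found Glotr_39602 among the members but missed the GH109 gene Glotr_80788. Of its 34 others, 12 were higher and 4 lower on cedar, and 13 were higher and 5 lower on cellulose. Of the 62 others on the transporter list, 14 were higher and 11 lower on cedar. On cellulose 12 of these transporters were higher and 17 lower. Short-chain and other NAD(P)-binding dehydrogenases had 24 others, with 8 higher and 2 lower on cedar. On cellulose 1 of these dehydrogenases was higher and 3 were lower, and the difference between the substrates was not tested. Brought to the same total TPM, the family genes had 31 higher and 205 lower calls on cellulose, beside 3.36% higher and 56.5% lower of all gene models, while the cedar counts stayed within 1.5 times of those above.

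Between cedar and cellulose, 87 of the 101 members did not pass the test. With limma on log2(TPM + 0.5), a Benjamini-Hochberg adjusted p under 0.01 over 10503 gene models and a ratio of means of at least 2 or at most 0.5, 10 of the 101 members were higher on cedar and 4 were lower. That is 9.90% and 3.96% of the members, beside 10.7% and 5.95% of all gene models tested, so the members were called about as often as gene models in general. The median log2 fold change was -0.06 over the members and 0.05 over all gene models tested, and single members ranged from -1.77 to 3.48. Cedar and cellulose means were within 1.5-fold of each other for 52 members and within 4-fold for 92, counts that were not made over all gene models. Every cedar library was above every cellulose library for 17 members and below for 22, which is 16.8% and 21.8%, beside 31.3% and 26.1% of the gene models tested.

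These counts lean on single libraries and on the scale. Without cedar replicate 1 there was 1 member higher and 0 lower, beside 382 and 208 of all gene models, and without cedar replicate 3 again 1 and 0, beside 287 and 149. Without cedar replicate 2 the members' counts were 6 and 3, beside 707 and 400 of all gene models. Without cellulose replicate 1 they were 7 and 2 beside 747 and 407, without cellulose replicate 2 they were 7 and 3 beside 931 and 379, and without cellulose replicate 3 they were 14 and 9 beside 1232 and 819. With all libraries brought to the same total TPM, the median over all gene models moved to 0.91 and 29 members were called higher and 0 lower, with 4897 higher and 141 lower calls in all against 1124 and 625. This scaling shifts most gene models by about the same amount, so a distance from that median could hardly change. Measured from it, the 14 members described next lay at 1.42 to 2.61 (the 10 higher) and -1.50 to -1.05 (the 4 lower). With the values as deposited these distances were 1.31 to 2.51 and -1.62 to -1.17, so they are no separate check of the calls. With quantile normalization 12 members were higher and 0 lower, beside 707 and 622 of all gene models.

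**Figure D3:**
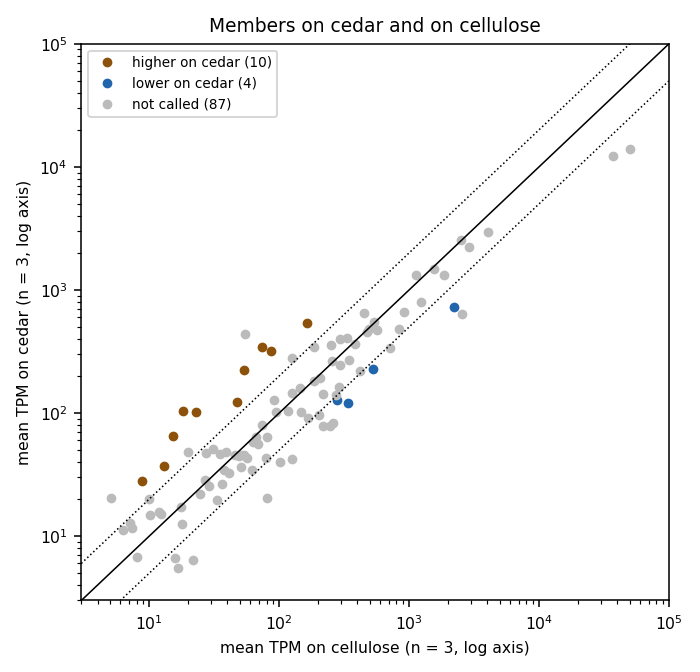
Mean TPM on cedar (vertical) against mean TPM on cellulose (horizontal) for the 101 members, both on log axes, n = 3 libraries each. The solid line marks equal means and the dotted lines a ratio of 2 either way, with 10 members called higher on cedar, 4 called lower and 87 not called.

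The 10 members called higher on cedar averaged 28.3 to 538 TPM there. Besides Glotr_73346, the hypothetical protein Glotr_133009 had 229, 213 and 231 TPM on cedar, 74.9, 34.3 and 52.8 TPM on cellulose and 0.877, 1.37 and 1.61 TPM on glucose. Its cedar libraries lay close together and far above the cellulose libraries (log2 fold change 2.11, standard error 0.28, limma adjusted p = 0.00208). Glotr_130130 had 425, 182 and 422 TPM on cedar and 111, 68.9 and 43.1 TPM on cellulose. Cedar replicate 2 was the lowest on cedar and yet above the highest cellulose library (log2 fold change 2.20, standard error 0.45, limma adjusted p = 0.00923). Glotr_81967, without a description, measured 139, 53.8 and 118 TPM on cedar, 32.1, 12.4 and 9.84 TPM on cellulose and 0.838, 1.03 and 1.27 TPM on glucose. It had the largest ratio among the members called, 5.72, with cedar replicate 2 again the low one (log2 fold change 2.56, standard error 0.52, limma adjusted p = 0.00881).

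Glotr_131917, also without a description, measured 45.9, 78.5 and 72.2 TPM on cedar, 8.85, 8.83 and 27.7 TPM on cellulose and 0.966, 0.684 and 0.714 TPM on glucose. Cellulose replicate 3 stood above the other cellulose libraries and was still below the lowest cedar library (log2 fold change 2.25, standard error 0.46, limma adjusted p = 0.009198), and the span of this gene overlaps that of Glotr_79805. Glotr_122614 had 298, 334 and 323 TPM on cedar and 126, 47.5 and 85.9 TPM on cellulose, against 6.84, 4.96 and 8.65 TPM on glucose. The cedar libraries were even and the cellulose libraries spread widely (log2 fold change 1.98, standard error 0.34, limma adjusted p = 0.00504). Glotr_102311 measured 407, 706 and 501 TPM on cedar, 132, 152 and 208 TPM on cellulose and 7.73, 8.24 and 6.29 TPM on glucose, and Glotr_76666 measured 26.7, 24.1 and 34.04 TPM on cedar, 6.48, 10.1 and 9.69 TPM on cellulose and 0.871, 1.096 and 0.256 TPM on glucose. In both, the cedar libraries lay apart from the cellulose libraries, with log2 fold changes of 1.70 and 1.65 and limma adjusted p of 0.00385 and 0.00201. The other 2 calls, named here after their values were seen, were Glotr_122762, with 40.8, 31.9 and 38.2 TPM on cedar against 12.7, 16.01 and 10.6 TPM on cellulose, and Glotr_135093, with 130.1, 101 and 137 TPM on cedar against 48.5, 50.8 and 42.03 TPM on cellulose. Neither overlapped between the substrates.

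The 4 members that were lower on cedar include 1 of the 10 most abundant. Glotr_122815, without a description, had 707, 700.1 and 786 TPM on cedar, 2003, 1716 and 2957 TPM on cellulose and 79.3, 73.1 and 48.03 TPM on glucose. The cedar libraries were close together, and even the lowest cellulose library lay far above them (log2 fold change -1.57, standard error 0.26, limma adjusted p = 0.004703). Glotr_62449, also without a description, measured 233, 234 and 219 TPM on cedar, 513, 464 and 599 TPM on cellulose and 10.4, 9.16 and 4.91 TPM on glucose. The groups were tight and separate (log2 fold change -1.19, standard error 0.17, limma adjusted p = 0.00255). Glotr_79212 measured 103, 144 and 116 TPM on cedar, 301, 391 and 325 TPM on cellulose and 8.61, 8.02 and 3.801 TPM on glucose. Here cellulose replicate 2 and cedar replicate 2 were the highest of their groups (log2 fold change -1.49, standard error 0.19, limma adjusted p = 0.00197). The hypothetical protein Glotr_141454 measured 126, 129 and 127 TPM on cedar, 302, 315 and 223 TPM on cellulose and 1.699, 1.55 and 0.986 TPM on glucose, with near equal cedar libraries and cellulose replicate 3 the lowest on cellulose (log2 fold change -1.12, standard error 0.18, limma adjusted p = 0.00378).

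Glotr_73346 was the sole member call that remained in each of the 18 alternative settings, with limma adjusted p between 2.61e-05 and 0.00902. It was the 1 call left without cedar replicate 1 and the 1 call left without cedar replicate 3. The calls of Glotr_62449, Glotr_79212, Glotr_122815 and Glotr_141454 were lost under quantile normalization and under equal library totals, at log2 fold changes that stayed below 0. The most abundant members had lower means on cedar without passing the threshold. Glotr_130898 had a log2 fold change of -1.77 with a limma adjusted p of 0.0336, and Glotr_92695 had -1.65 with 0.0437.

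**Figure D4:**
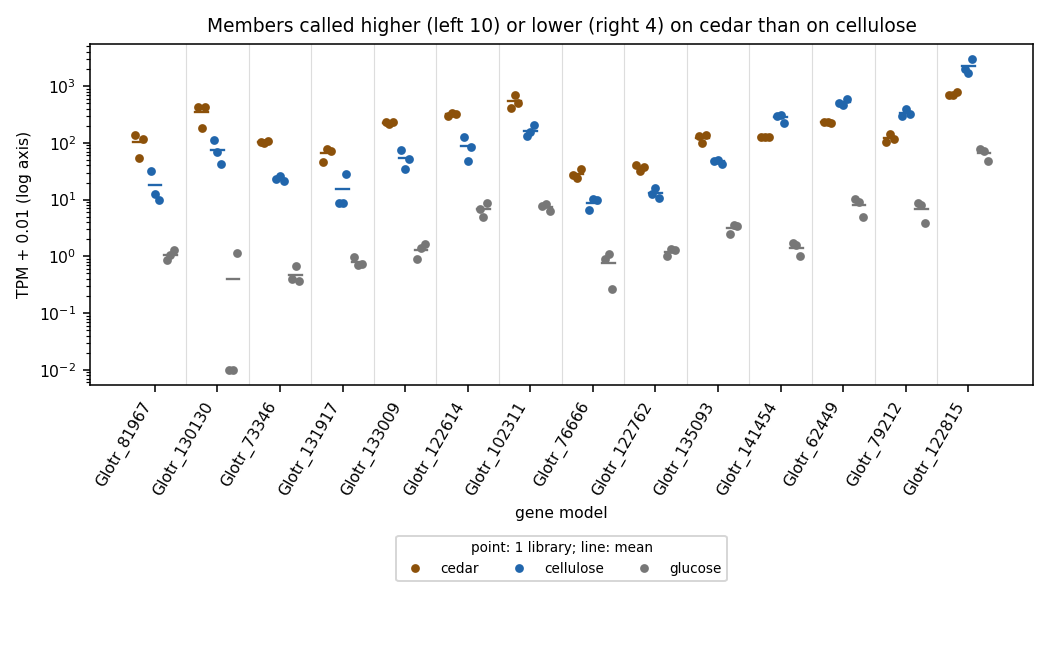
TPM of the 14 members called between cedar and cellulose, on a log axis with 0.01 added so that values listed at 0 appear at the bottom, with 1 point for each library and a line at the mean of each group. The left 10 genes have all cedar points above all cellulose points, the right 4 have all cedar points below, and glucose is lowest throughout.

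The median ratio of cedar to cellulose was 0.917 over the members, against 0.521 over the 24 gene models set aside. Of the 24, 7 were called lower and 1 higher on cedar. The difference between the lists was not tested.

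Libraries of the same carbon source often differed over the members. The median coefficient of variation over members was 16.7% on cedar, 36.8% on cellulose and 19.6% on glucose, beside 11.6%, 18.2% and 9.58% over gene models of at least 1 TPM. The members were not filtered in this way, and 22 of them averaged under 1 TPM on glucose, so the glucose figures are not on equal terms. On cellulose, 15 members had a highest library over 5 times the lowest. Cellulose replicate 3 was at least 1.5-fold above both other cellulose libraries for 29 members and as far below both for 18, which is 28.7% and 17.8%, beside 8.23% and 9.92% of gene models of at least 1 TPM. On cedar, replicate 2 stood apart in the same way, above for 11 members and below for 22, beside 2.94% and 8.44% of gene models. Cedar replicates 1 and 3 differed by a median of 1.07-fold over the members, and replicates 1 and 2 by 1.303-fold.

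The extremes on cellulose went both ways. Glotr_117315, without a description, measured 42.1, 39.98 and 37.3 TPM on cedar, 10.9, 7.05 and 284 TPM on cellulose and 2.82, 2.47 and 2.898 TPM on glucose, so that cellulose replicate 3 alone lifted its cellulose mean above its cedar mean. Glotr_53847 measured 34.2, 55.9 and 36.7 TPM on cedar, 63.9, 49.5 and 263 TPM on cellulose and 0.663, 0.858 and 0.987 TPM on glucose, with cellulose replicate 3 again far above the rest. On the low side, Glotr_117006 measured 439, 359 and 424 TPM on cedar, 679.6, 250.5 and 66.2 TPM on cellulose and 18.9, 27.1 and 19.4 TPM on glucose, and Glotr_136552 measured 33.1, 13.9 and 29.7 TPM on cedar, 37.8, 43.1 and 6.395 TPM on cellulose and 1.76, 1.58 and 1.43 TPM on glucose. In these 2 genes cellulose replicate 3 was the lowest substrate library, and cedar replicate 2 was the lowest on cedar. These 4 genes were chosen after their values were seen.

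The 2 libraries that stood apart tended to do so on the same side. Both cellulose replicate 3 and cedar replicate 2 were low by this measure for 10 members (9.90%, beside 3.49% of 9222 gene models), among them Glotr_130130, Glotr_43584, Glotr_58342 and Glotr_112391. Both were high for 6 members (5.94%, beside 0.998%), namely Glotr_21049, Glotr_53847, Glotr_96525, Glotr_96613, Glotr_127199 and Glotr_137467. Glotr_96613 was the widest of them, with 139, 718 and 168 TPM on cedar, 131, 29.95 and 393 TPM on cellulose and 3.96, 5.41 and 28.6 TPM on glucose, where glucose replicate 3 was also high. Opposite sides were seen in 3 members, Glotr_29189, Glotr_45932 and Glotr_99121, which were high in cellulose replicate 3 and low in cedar replicate 2. No member was low in cellulose replicate 3 and high in cedar replicate 2. Of the 24 gene models set aside, 9 were low in both libraries and 2 were high in both. What sets these cultures apart was not tested.

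**Figure D5:**
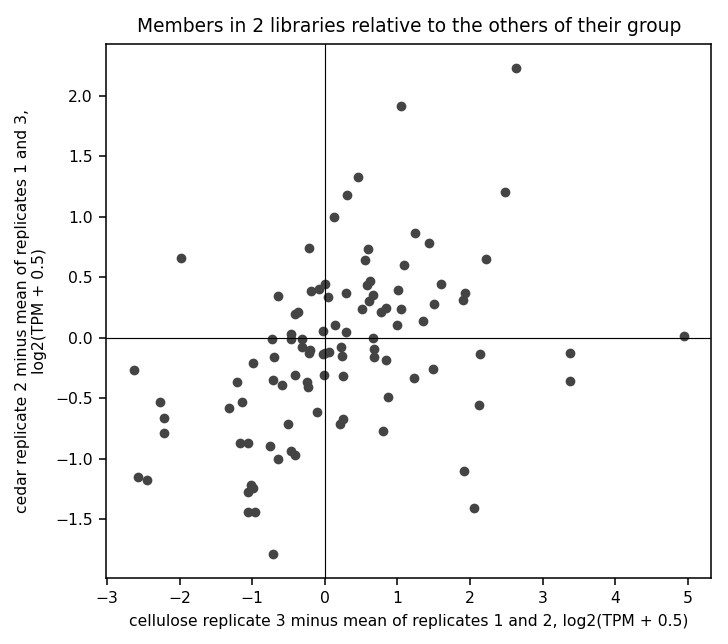
For each of the 101 members, log2(TPM + 0.5) in cedar replicate 2 minus the mean of cedar replicates 1 and 3 (vertical) against cellulose replicate 3 minus the mean of cellulose replicates 1 and 2 (horizontal). Points in the lower left are low in both libraries and points in the upper right are high in both. Some points lie in the upper left, although by the 1.5-fold measure no member was low in cellulose replicate 3 and high in cedar replicate 2.

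In the genome the members were mostly scattered. RefSeq positions of assembly Glotr1_1 were found for 99 of the 101, and 4 of the 99 (4.04%) had another member as the next gene, beside 1.69% of 11323 other gene models with a member as the next gene. Glotr_93712 and Glotr_138823 are 1 such pair, with 1239 bases between their spans. Glotr_93712 measured 91.2, 69.6 and 87.01 TPM on cedar, 63.4, 60.4 and 650.0 TPM on cellulose and 3.61, 4.05 and 1.96 TPM on glucose, and Glotr_138823 measured 21.9, 19.1 and 19.7 TPM on cedar, 26.3, 13.7 and 203 TPM on cellulose and 0.859, 0.651 and 0.155 TPM on glucose. Both were many times as high in cellulose replicate 3 as in the other cellulose libraries, while their cedar libraries were even. The GH12 endoglucanase Glotr_138821, one of the genes set aside, lies 3 genes from Glotr_93712, and it measured 75.03, 21.3 and 90.5 TPM on cedar, 4871, 4904 and 1319 TPM on cellulose and 3.89, 5.75 and 4.72 TPM on glucose, with no such peak in cellulose replicate 3. The other pair, Glotr_141454 and Glotr_82236, overlaps by 464 bases. Glotr_82236 measured 41.9, 59.1 and 45.1 TPM on cedar, 34.3, 32.3 and 50.1 TPM on cellulose and 2.33, 3.44 and 1.57 TPM on glucose, and it did not share the lower level of Glotr_141454 on cedar. According to the paper, the libraries and the assignment of reads were strand-specific. Whether these 2 gene models lie on opposite strands, so that strand separates the reads of the shared stretch, was not examined here.

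Next to genes set aside lay 2 members. Glotr_125225, without a description, is the neighbour of the MFS transporter Glotr_125226, at 781 bases, and measured 108, 86.4 and 115 TPM on cedar, 130.5, 156 and 61.7 TPM on cellulose and 1.46, 1.35 and 1.02 TPM on glucose, while Glotr_125226 measured 342, 249 and 391 TPM on cedar, 198, 196 and 83.9 TPM on cellulose and 0.0305, 0.392 and 0.116 TPM on glucose. Glotr_94428 lies beside the AA1_1 laccase Glotr_130426 and measured 27.4, 76.5 and 33.2 TPM on cedar, 73.4, 23.2 and 57.3 TPM on cellulose and 4.81, 3.499 and 4.295 TPM on glucose, with cedar replicate 2 high and cellulose replicate 2 low. Over the 183 tested gene models that sit directly beside a member and are not members, 51 (27.9%) were higher on cedar than on glucose by limma and 35 (19.1%) were higher on cellulose, beside 15.2% and 10.4% of all gene models. The 183 include Glotr_125226 and Glotr_130426, which met the same numbers against glucose as the members. Lower than on glucose were 17 (9.29%) on cedar and 13 (7.10%) on cellulose, beside 15.7% and 13.9%. With the same total TPM, 13 of them were higher and 86 lower on cellulose, beside 3.36% and 56.5% of all gene models. These counts over neighbours were not planned. The spans of 9 placed members overlap another gene model, and whether reads of shared stretches raise such neighbours was not tested. Members were of ordinary length, with a median gene span of 1558 bases, beside 1476 bases over 11422 gene models with a position.

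At the edge of the rule, the members with the smallest of their ratios just above 10 were Glotr_134822, Glotr_69736, Glotr_126259, Glotr_107937 and Glotr_128466. Glotr_134822 was the closest, at 10.1 on cellulose, and it measured 574, 748 and 629 TPM on cedar, 353, 144 and 842 TPM on cellulose and 26.6, 21.5 and 84.1 TPM on glucose. Its glucose replicate 3 stood above the other glucose libraries, and cellulose replicate 2 was low. Glotr_126259 had 81.9, 221 and 115 TPM on cedar, 292, 216 and 309 TPM on cellulose and 14.2, 15.8 and 10.4 TPM on glucose, with cedar replicate 2 the high one on cedar. Glotr_107937 and Glotr_128466 had lower means on cedar than on cellulose, with ratios to glucose of 10.5 and 10.6 on cedar and 19.2 and 19.6 on cellulose. Just outside were Glotr_136016, Glotr_134059, Glotr_139408, Glotr_9018 and Glotr_128129. Their smaller ratios were 9.99, 9.81, 9.69, 9.54 and 9.53. Glotr_128129 was abundant, with 2944, 2759 and 3009.9 TPM on cedar, 1595, 790.4 and 1549 TPM on cellulose and 150.0, 136 and 126 TPM on glucose, and would have ranked among the 6 highest members.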

How the data were processed

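RNA-seq (stranded mRNA libraries) was done on 9 cultures, 3 for each carbon source. The authors made the deposited signal values with Kallisto 0.44.0, as TPM over the filtered JGI gene models, and rescaled them between libraries with Sleuth 0.29.0. Their totals differ between carbon sources, so other scalings were tried. The tests had been planned for unscaled TPM and were used unchanged.

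The members, family lists and rule for named genes were chosen with earlier results of these data known. Named were the 10 members with the highest level, the 10 with the largest smaller ratio, up to 8 with the largest difference in each direction, 5 on each side of the cut, those on the study's lists of top genes, adjacent members, and up to 5 of each family.

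Cedar was compared with cellulose, and each with glucose, by limma 3.58.1 in R 4.3.3 (lmFit, eBayes with trend) on log2(TPM + 0.5), for gene models with at least 0.1 TPM in 3 of 6 libraries. Calls needed an adjusted p under 0.01 (Benjamini-Hochberg) and a ratio of at least 2 or at most 0.5. The test was checked on simulated data. Descriptions came from the study's lists, of which 1734 gene models were held. RefSeq positions (Glotr1_1) were used for the order and span of genes. Other steps used Python 3.11.15 with pandas 2.3.3, and plots used matplotlib 3.10.9.

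The alternatives were other added values, filters, scalings, thresholds and fits, and each library left out. The p-values measure the spread between cultures of 1 experiment. Sequences were not analysed here.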

Additional observations from a re-analysis of the deposited data

Results flagged for a closer look

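For 14 members the change relative to glucose differed between the substrates, by the limma test of cedar against cellulose over all gene models. The log2 fold changes of cedar over cellulose that were above 0 were 2.56 for Glotr_81967, 2.25 for Glotr_131917, 2.20 for Glotr_130130, 2.13 for Glotr_73346, 2.11 for Glotr_133009, 1.98 for Glotr_122614, 1.70 for Glotr_102311, 1.65 for Glotr_76666, 1.48 for Glotr_122762 and 1.36 for Glotr_135093. Those below 0 were -1.57 for Glotr_122815, -1.49 for Glotr_79212, -1.19 for Glotr_62449 and -1.12 for Glotr_141454. In each of the 14, no cedar library overlapped a cellulose library. Among them, cedar replicate 2 was the lowest cedar library for 8 and the highest for 6, and cellulose replicate 3 was the highest cellulose library for 4 and the lowest for 6.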

How the results depend on the processing

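The counts between cedar and cellulose moved with the scale, the fit and the libraries, and the cause was not tested beyond what each setting changes. Against 10 members higher and 4 lower, there were 29 and 0 at the same total TPM, 19 and 0 at the same total without the non-members Glotr_134131 and Glotr_50888 (an alternative added after the data were seen), 12 and 0 under quantile normalization, 8 and 4 with median-of-ratios scaling, 5 and 3 with no filter, 13 and 8 with all 3 groups in 1 fit, 14 and 8 at an adjusted p under 0.05, and 2 and 0 with the replicate block. Over all gene models, against 1124 higher and 625 lower, the same settings gave 4897 and 141, 3523 and 177, 707 and 622, 1015 and 728, 755 and 382, 1365 and 797, 1616 and 884, and 285 and 127. With 1 library left out, members ranged from 1 to 14 higher and 0 to 9 lower, and all gene models from 287 to 1232 higher and 149 to 819 lower. The labels do not say whether the replicate numbers pair libraries across carbon sources. Deviations of same-numbered cedar and cellulose libraries correlated at 0.19, -0.42 and -0.26 over 9761 gene models, and not every library correlated best with its own number. Cedar replicate 2 and cellulose replicate 3 correlated at 0.399. The deviations within a group depend on each other, so these values cannot settle whether the cultures were paired.

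The 14 member calls kept their direction in all 18 alternatives, though several of these could not change it. Another filter or threshold, no trend, all 3 groups in 1 fit and the replicate block leave the log2 fold change as it was. None was lost with another added value, a filter of 1 TPM or no trend, 4 were lost at the same total TPM and 12 with the replicate block. The number of members was 211 at a ratio of 5, 47 at 20, 50 at the same total TPM, and 97 to 107 with 1 library left out. Among the other family genes, calls on cellulose relative to glucose were 31 higher and 205 lower at the same total TPM, against 56 and 62, beside 3.36% and 56.5% of all gene models, against 10.4% and 13.9%. At 2-fold in place of 1.5-fold, a setting chosen after seeing the data, cellulose replicate 3 stood above for 19 members and below for 11, and cedar replicate 2 above for 4 and below for 10. Within 3 genes, 6 members had another member near them. Protein identity between members and promoter motifs were not run, since no sequences were at hand. Without read counts, what depth limits for single genes is unknown.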

Other observations

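Some members had similar levels in all cedar and cellulose libraries. In 10 members the 6 cedar and cellulose libraries lay within 1.5-fold of each other, and in 24 within 2-fold. How many of all gene models were as even was not counted, so evenness is not shown to be particular to the members. The narrowest were Glotr_118302 (highest over lowest 1.22), Glotr_54266 (1.27), Glotr_114005 (1.28), Glotr_138894 (1.31) and Glotr_116747 (1.32). Glotr_118302 measured 152, 137 and 147 TPM on cedar, 125, 129 and 125 TPM on cellulose and 5.57, 6.17 and 5.605 TPM on glucose. Glotr_54266 measured 436, 555 and 442 TPM on cedar, 512, 457 and 499 TPM on cellulose and 21.8, 18.7 and 12.4 TPM on glucose. None of the 5 has a description, and these genes were chosen after their values were seen.

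On glucose, replicate 3 stood apart from the other glucose libraries by at least 1.5-fold for 22 members, 8 of them high and 14 low, which is 7.92% and 13.9%, beside 2.83% and 3.38% of gene models of at least 1 TPM. The members were not filtered by level and include those that averaged under 1 TPM on glucose, so the shares are not on equal terms. The high ones include Glotr_96613 and Glotr_134822, whose values are given above.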
